A study of Mus musculus with 6 samples.

Results

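The genes described here make, recycle and spend glutathione, together with partner enzymes of the oxidative stress response: Gclc, Gclm, Gss, Gsr, Gpx1, Gpx3, Gpx4, Txnrd1, Nqo1 and Hmox1. They were taken by their platform gene symbol, and where several probe sets named a gene alone, the brightest on average was kept. Each of the 10 had exactly 1 such probe set, and they are 10 of 22180 genes measured. RNA came from the tibialis anterior, a fast-twitch muscle of the lower leg, of male C57Bl/6 mice operated at 11 weeks and sampled at 18 weeks of age. There were 3 castrated samples, labelled refed, and 3 sham-operated samples, labelled fasted. No genetic change or drug is named for either group, and castration removed the testes as the main source of circulating androgen. The feeding label followed surgery in every sample, so surgery and feeding cannot be told apart in any difference given below. The series design has some mice stay fasted and others refeed for 30 minutes before a further 4 hours without food, whereas the protocol attached to each sample gives all mice the meal.

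Glutathione is a tripeptide thiol that cells hold in reserve against oxidants. Glutamate-cysteine ligase, built from the catalytic subunit Gclc and the modifier subunit Gclm, carries out the rate-limiting step of its synthesis, and glutathione synthetase, Gss, completes it. Glutathione peroxidases use it to reduce peroxides, and glutathione reductase, Gsr, regenerates it with NADPH. The transcription factor NRF2, encoded by Nfe2l2 and held in check by Keap1, drives many of these genes through antioxidant response elements. In skeletal muscle, contraction and mitochondrial respiration are sources of the oxidants that these enzymes remove.

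None of the 10 genes differed between castrated and sham muscle beyond the threshold of an adjusted p of 0.05, but every point estimate was below 0. The largest was Gclm, with a log2 difference, castrated minus sham, of −0.46, followed by Gpx1 at −0.30, Gpx3 at −0.28 and Gsr at −0.25. Gss and Nqo1 lay closest to 0, at −0.0098 and −0.021. The median over the 10 genes was −0.22, against −0.0056 over all 22180 genes, of which 51.5% had a difference below 0. Over the brighter genes, from the 50th percentile of mean level up, which include all 10, the median was −0.030. The limma fit over all genes called 0 of the 10, with a smallest adjusted p of 0.668, and it called 0.0135% of all genes in either direction. At an unadjusted p under 0.05 it gave 3 of the 10, Gclm, Gpx1 and Gpx3, all lower, against 3.51% of all genes in that direction. After quantile or cyclic loess normalization only Gclm remained under 0.05. In 4 of the 10, Gclc, Gclm, Gpx3 and Gpx4, every castrated sample lay below every sham sample, as did 7.02% of all genes. The genes were chosen with earlier results of these arrays known, so these counts describe the group and do not test it.

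The region upstream of the annotated start is shown for 3 of the genes, because Gclm had the largest difference, Txnrd1 holds the other antioxidant response element match found, and Gpx1 had the next largest difference. The sequences are RefSeq windows of GRCm38.p6 reaching 250 bases upstream of the start, read 5′ to 3′ on the gene's strand, and windows matched 7 of the 10 genes. Capitals mark matches to the element's core, TGACNNNGC, searched on both strands. Gclm lies on the plus strand (chr3:122245307-122245556), Txnrd1 on the plus strand at the second of its 3 annotated windows (chr10:82858956-82859205), and Gpx1 on the plus strand (chr9:108338830-108339079).
Gclm: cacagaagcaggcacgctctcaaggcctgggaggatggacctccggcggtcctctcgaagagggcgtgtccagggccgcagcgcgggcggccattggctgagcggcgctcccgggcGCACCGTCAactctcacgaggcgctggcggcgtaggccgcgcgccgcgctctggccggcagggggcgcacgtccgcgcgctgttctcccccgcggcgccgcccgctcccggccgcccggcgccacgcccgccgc
Txnrd1: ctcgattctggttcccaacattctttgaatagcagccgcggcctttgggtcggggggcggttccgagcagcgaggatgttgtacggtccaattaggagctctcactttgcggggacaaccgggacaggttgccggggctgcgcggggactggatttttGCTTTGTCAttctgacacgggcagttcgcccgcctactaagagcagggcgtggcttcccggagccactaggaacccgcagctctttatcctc
Gpx1: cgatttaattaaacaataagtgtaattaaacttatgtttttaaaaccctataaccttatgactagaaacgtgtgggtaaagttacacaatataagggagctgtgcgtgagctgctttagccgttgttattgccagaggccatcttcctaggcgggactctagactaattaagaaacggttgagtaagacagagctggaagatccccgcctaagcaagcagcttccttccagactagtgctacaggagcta
The Gclm match begins 134 bases upstream of the start and reads TGACGGTGC on the opposite strand. The Txnrd1 match begins 92 bases upstream and reads TGACAAAGC on the opposite strand. These were the 2 matches among 12 windows of the 7 genes, while 10.2% of all 32851 windows of that length held one. These letters describe the windows alone, and binding was not measured.

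Gclm, the subunit that raises the catalytic efficiency of glutamate-cysteine ligase, had log2 values of 7.55, 7.75 and 8.08 in castrated samples 1 to 3, against 8.08, 8.17 and 8.49 in sham samples 1 to 3. The groups did not overlap, but they nearly touched: the highest castrated sample, sample 3, lay 0.0045 below the lowest sham sample, sample 1. The means were 7.79 ± 0.26 in castrated and 8.25 ± 0.22 in sham muscle (SD, n = 3 each), a linear-scale change of −27.1% (log2 standard error 0.16, 95% interval −0.82 to −0.095, limma adjusted p = 0.668). With 1 sample left out the difference ran from −0.60 without castrated sample 3 to −0.33 without sham sample 3.

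Gclc, the catalytic subunit, stood at 7.17, 7.28 and 7.39 in castrated samples, against 7.59, 7.39 and 7.52 in sham samples. Its groups were also apart by a narrow margin of 0.0088, between castrated sample 3 and sham sample 2. The difference was −0.22 (standard error 0.11, 95% interval −0.46 to 0.015, limma adjusted p = 0.721). Gss, the second enzyme of the pathway, had 6.31, 6.11 and 5.99 in castrated samples, against 6.15, 6.26 and 6.02 in sham samples. Here the groups lay over each other, and castrated sample 1 was the highest of the 6, where for Gclc and Gclm it was the lowest. The Gss difference of −0.0098 had a 95% interval of −0.28 to 0.26 (limma adjusted p = 0.990), so its sign is undetermined. It was above 0 after quantile (0.0032) or cyclic loess normalization (0.0033).

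Gsr, which returns oxidised glutathione to its reduced form, had 7.90, 8.03 and 8.26 in castrated samples, against 8.22, 8.23 and 8.49 in sham samples. Castrated sample 3 lay above sham samples 1 and 2, so the groups overlapped. The difference was −0.25, or −16.0% on the linear scale (standard error 0.13, 95% interval −0.54 to 0.038, limma adjusted p = 0.745), and it was −0.16 without sham sample 3. Over the 6 arrays, with each gene centred on its own mean, Gsr followed Gclm more closely than any other of the 10 genes (root mean square difference 0.12 log2 units), and Gss least closely (0.378). Among the 10539 named genes at or above the median of mean level, those closest to Gclm by that measure were Slc12a2, a sodium-potassium-chloride cotransporter (0.0388), Npc1, which moves cholesterol out of lysosomes (0.0735), and Taf7, a subunit of the general transcription factor TFIID (0.0769).

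**Figure D1:**
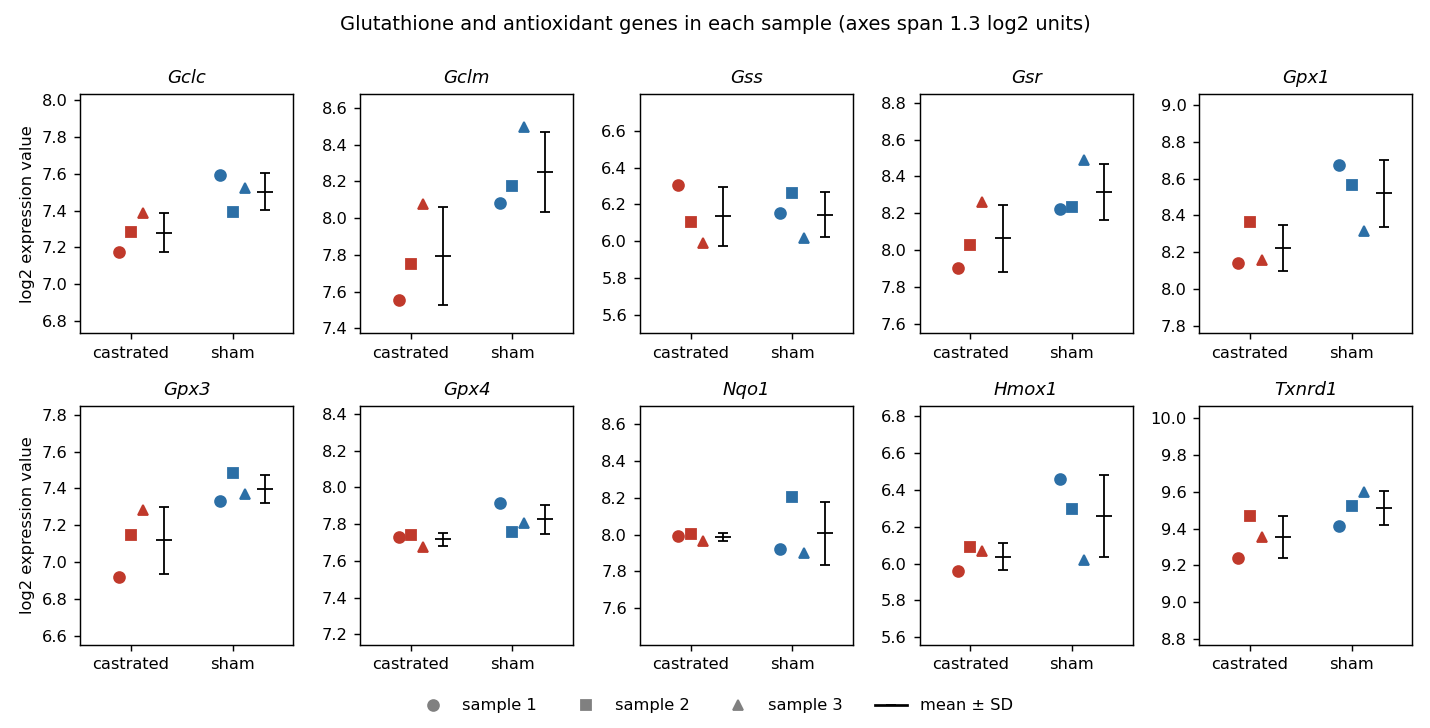
Log2 expression value (y axis) of each of the 10 genes in the 3 castrated samples (left, red) and the 3 sham samples (right, blue), with marker shape giving the sample number and black bars the mean ± SD. Castrated sample 1 (circle) was the lowest of the 6 samples in 7 genes, and the groups were apart in Gclc, Gclm, Gpx3 and Gpx4.

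The 3 peroxidases among the 10 genes use selenocysteine in their active site. Gpx1, the abundant cytosolic and mitochondrial peroxidase that removes hydrogen peroxide, had 8.14, 8.36 and 8.16 in castrated samples, against 8.67, 8.57 and 8.32 in sham samples. Only castrated sample 2 and sham sample 3 overlapped, by 0.048. The means were 8.22 ± 0.12 in castrated and 8.52 ± 0.18 in sham muscle (SD, n = 3 each), a change of −18.6% (log2 difference −0.30, standard error 0.12, 95% interval −0.58 to −0.018, limma adjusted p = 0.691). Leaving out 1 sample moved it between −0.40 without sham sample 3 and −0.22 without sham sample 1.

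Gpx3, the secreted peroxidase, had 6.92, 7.15 and 7.28 in castrated samples, against 7.33, 7.48 and 7.37 in sham samples. It had the widest gap between the groups of the 4 genes whose groups were apart, 0.049. The difference was −0.28, or −17.5% (standard error 0.12, 95% interval −0.54 to −0.011, limma adjusted p = 0.696), and it was −0.18 without castrated sample 1, where Gpx3 was lowest. Gpx3 is also made by fat cells, and 8 of 11 measured adipocyte markers had a difference above 0, with summed linear-scale levels of 4419 to 5130 in castrated and 4127 to 4966 in sham samples. Adiponectin, Adipoq, a defining adipocyte gene, lay at 5.21 to 5.58 in castrated and 4.91 to 5.36 in sham samples, near the array medians of 5.40 to 5.47 over genes. Their part in the Gpx3 value was not tested. In whole muscle, fewer cells of a type and less RNA per cell cannot be told apart.

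Gpx4, the peroxidase that reduces lipid hydroperoxides in membranes and guards against ferroptosis, had 7.73, 7.74 and 7.68 in castrated samples, against 7.91, 7.76 and 7.81 in sham samples. Its castrated samples were the closest together of the 4 genes whose groups were apart (SD 0.035), yet the gap to sham was 0.015. The difference was −0.11, or −7.27% (standard error 0.095, 95% interval −0.32 to 0.11, limma adjusted p = 0.848), and −0.065 without sham sample 1. Under quantile normalization it was −0.059. Of the other 5 members of the peroxidase family, 3 had a difference above 0, with a median of 0.040, and 0 passed in either direction. Gpx5, the epididymal peroxidase, had 3.72 to 3.84 in castrated and 3.58 to 3.63 in sham samples (difference 0.18), but such values lie far below the array medians. Gpx7 and Gpx8, peroxidases of the endoplasmic reticulum, differed by 0.040 and 0.098.

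Txnrd1, cytosolic thioredoxin reductase and also a selenoprotein, keeps thioredoxin reduced and works in parallel with glutathione. It had 9.24, 9.47 and 9.35 in castrated samples, against 9.41, 9.52 and 9.60 in sham samples. The groups overlapped, with castrated sample 2 above sham sample 1. The difference was −0.16, or −10.5% (standard error 0.11, 95% interval −0.40 to 0.080, limma adjusted p = 0.792), and −0.10 without castrated sample 1.

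Nqo1, the quinone reductase often used as a readout of NRF2 activity, had 7.99, 8.01 and 7.96 in castrated samples, against 7.92, 8.21 and 7.90 in sham samples. The 3 castrated samples lay within 0.041 of each other and between the sham samples. The difference was −0.021 (95% interval −0.27 to 0.23, limma adjusted p = 0.977), and it was 0.077 without sham sample 2, the highest.

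Hmox1, haem oxygenase 1, which breaks haem down to biliverdin, iron and carbon monoxide, had 5.96, 6.09 and 6.07 in castrated samples, against 6.46, 6.30 and 6.02 in sham samples. Sham sample 3 lay below castrated samples 2 and 3, so the groups overlapped, and the sham samples were spread over 0.44. The difference was −0.22, or −14.2% (standard error 0.13, 95% interval −0.51 to 0.067, limma adjusted p = 0.765), and it ran from −0.34 without sham sample 3 to −0.12 without sham sample 1. Macrophages that clear haem express Hmox1, and 11 of 14 macrophage markers had a difference below 0, with summed linear-scale levels of 987 to 1399 in castrated and 1030 to 1694 in sham samples. Cd163, the macrophage receptor for haemoglobin, had 6.39, 6.29 and 6.09 in castrated samples, against 6.59, 6.39 and 6.27 in sham samples. Sham sample 1 was the highest of the 6 for both Cd163 and Hmox1, but castrated sample 1, the lowest for Hmox1, was not low in macrophage markers. With each marker centred on its own mean, their median was 0.323 in sham sample 1 and 0.0735 in castrated sample 1. It lay between −0.146 and −0.0427 in the other samples. The part of macrophages in the Hmox1 value was not tested.

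**Figure D2:**
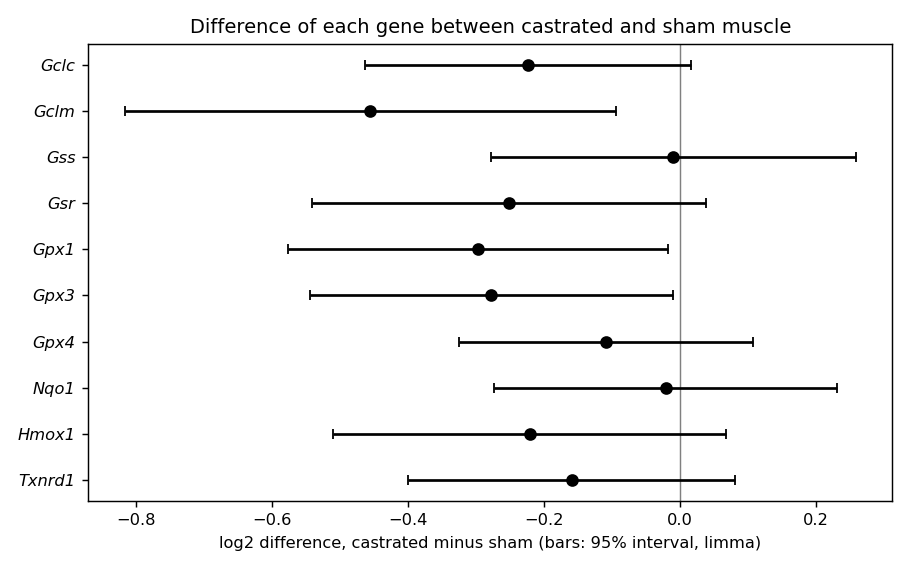
Log2 difference, castrated minus sham (x axis), of each of the 10 genes (y axis), with bars for the 95% interval of the limma fit. All 10 points lie below 0, and the intervals of Gclm, Gpx1 and Gpx3 exclude 0 before adjustment over all genes.

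The 10 genes did not share 1 profile over the arrays. Castrated sample 1 was the lowest of the 6 samples in 7 genes and castrated sample 3 in 2 (Gss and Gpx4), while sham sample 3 was the lowest in Nqo1. The highest sample was sham sample 1 in 4 genes, sham sample 3 in 3, sham sample 2 in 2 and castrated sample 1 in 1. With each gene centred on its mean, the median over the 10 genes was −0.21, −0.047 and −0.057 in castrated samples 1 to 3, and 0.068, 0.14 and 0.075 in sham samples 1 to 3. These medians were apart between the groups, a description that the known direction of the genes already favours. Castrated sample 1, the furthest out, also had the most slow-fibre signal, with a centred median of 0.88 over 8 slow-fibre markers, against −0.23 and −0.21 in the other castrated samples and −0.28 to −0.064 in sham samples. The slow myosin Myh7 stood at 7.41 in that sample and between 5.11 and 5.40 in the other 5. Tpm3, another of the 8, went the other way, with 6.39 in that sample and 6.42 to 6.63 in the other 5. Tendon and neutrophil markers had differences mostly of 1 sign, with 0 past the threshold. Of 8 tendon markers 7 had a difference above 0, with a median of 0.50 and summed linear-scale levels of 2745 to 3482 in castrated and 1694 to 3209 in sham samples. Of 7 neutrophil markers 6 had a difference below 0, with a median of −0.24, and Ly6g went the other way, at 0.40. The summed levels of the 7 were 127 to 135 in castrated and 145 to 165 in sham samples. These are dim genes: S100a8, S100a9, Ly6g, Mmp8, Retnlg and Cxcr2 lay above the array median on 0 of the 6 arrays, and Csf3r on 1. Whether they were above background was not tested. Without castrated sample 1 the median difference of the 10 genes was −0.17, all 10 remained below 0, and 0 had an unadjusted p under 0.05. The part of fibre type, tendon or neutrophils in these values was not tested.

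**Figure D3:**
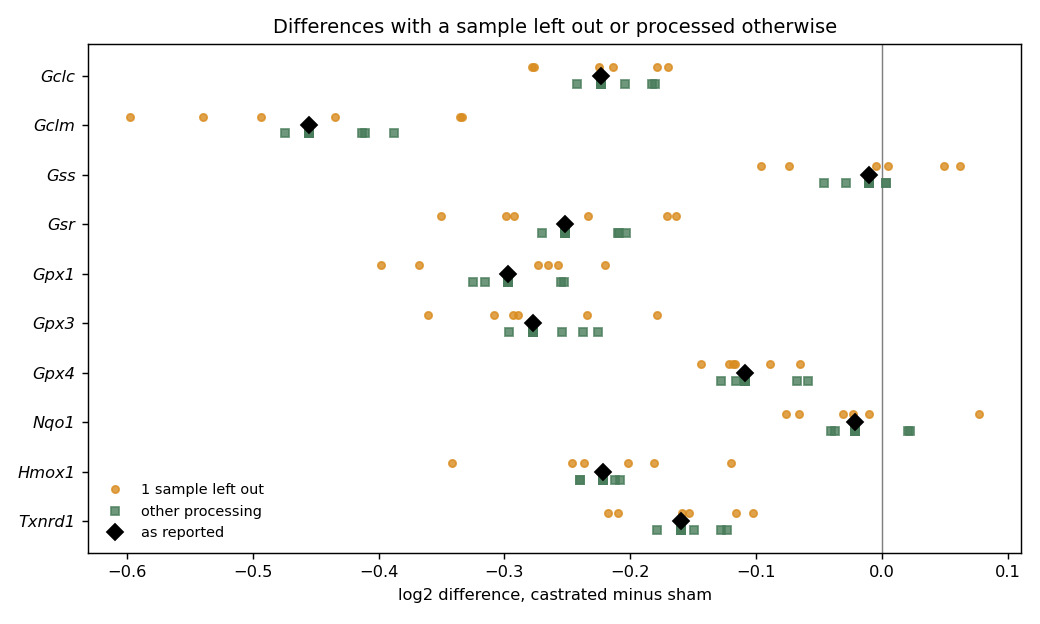
Log2 difference, castrated minus sham (x axis), of each gene as reported (diamond), with 1 sample left out (circles) and under the other processing choices (squares). The values of 8 genes stay below 0 in every setting shown, while Gss and Nqo1 fall on both sides.

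Of the regulators of the pathway, Nfe2l2, Keap1 and Bach1 had RNA differences near 0. Nfe2l2, which encodes NRF2, had 8.71, 8.88 and 8.94 in castrated samples, against 8.79, 8.93 and 8.89 in sham samples (difference −0.027, 95% interval −0.26 to 0.21). Keap1 differed by −0.047 and Bach1, a repressor of the same elements, by 0.023. Of 16 measured regulators 12 had a difference below 0, with a median of −0.046, and 0 passed in either direction. The smallest p among them belonged to Maff, a small MAF protein that pairs with NRF2, with 5.70, 5.72 and 5.61 in castrated samples, against 6.14, 5.95 and 6.16 in sham samples (difference −0.41, standard error 0.10, limma adjusted p = 0.489). Every castrated sample lay below every sham sample for Maff, and likewise for Bach2, a lymphoid relative of Bach1 (difference −0.25). In all, 5 of the 16 regulators had groups apart in that direction, against 7.02% of all genes.

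Other NRF2 targets went both ways. Of 25 measured, 13 had a difference below 0 and 12 above, with a median of −0.0031, and 0 passed. Mgst1, a membrane-bound glutathione transferase and peroxidase, had 7.26, 7.13 and 7.30 in castrated samples, against 7.73, 7.85 and 8.18 in sham samples. Its groups were well apart, and its difference of −0.69 (standard error 0.13, limma adjusted p = 0.391) was larger than that of any of the 10 genes. Srxn1, sulfiredoxin, which repairs overoxidised peroxiredoxins, differed by −0.25, Txn1, thioredoxin, by −0.14 and ferritin heavy chain, Fth1, by −0.074. On the other side were Cbr1, a carbonyl reductase, at 0.30 and Gstm1, a mu-class glutathione transferase, at 0.25. Gstm1 had 8.05, 7.99 and 7.99 in castrated samples, against 7.67, 7.98 and 7.61 in sham samples, and its relative Gstm2 differed by 1.10 (limma adjusted p = 0.149).

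The 19 measured glutathione transferases split into 9 above and 10 below 0, with a median of −0.0018, and 0 passed. Genes of glutathione supply and turnover were likewise divided, with 8 of 17 below 0, a median of 0.0046 and 0 past the threshold. Chac1, which degrades glutathione inside the cell, had 7.83, 8.05 and 7.99 in castrated samples, against 7.52, 7.76 and 7.14 in sham samples. All castrated samples lay above all sham samples, opposite in direction to the synthesis gene Gclm (difference 0.48, standard error 0.16, limma adjusted p = 0.658), as they did for 5.73% of all genes. Its relative Chac2 differed by −0.0045. Dpep1, a dipeptidase of extracellular glutathione breakdown, differed by −0.21. The cystine importer subunit Slc7a11 lay at 3.24 to 3.55 in all 6 samples, far below the array medians, and differed by 0.027.

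Of the enzymes that supply NADPH to Gsr and Txnrd1, 6 of 11 measured were below 0, with a median of −0.00099, and 0 passed. Pgd, of the pentose phosphate pathway, had 7.04, 7.06 and 7.03 in castrated samples, against 7.31, 7.24 and 7.26 in sham samples. Both groups were tight and apart for Pgd (difference −0.22, standard error 0.090, limma adjusted p = 0.687). Aldh1l1, a folate enzyme that yields NADPH, differed by −0.17.

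Other enzymes against oxidants showed no common direction. Of 17 measured thioredoxin, peroxiredoxin and glutaredoxin genes 11 were below 0, with a median of −0.026, and 0 passed. Txnrd3, a thioredoxin reductase known from testis, had 5.47, 5.66 and 5.32 in castrated samples, against 5.83, 5.83 and 5.72 in sham samples, with the groups apart (difference −0.31, limma adjusted p = 0.671). The mitochondrial reductase Txnrd2 differed by −0.0096. Of 5 superoxide dismutase and catalase genes 2 were below 0. Sod1, the cytosolic copper-zinc enzyme, had 10.54, 10.47 and 10.44 in castrated samples, against 10.86, 10.61 and 10.65 in sham samples, and these did not overlap (difference −0.22, limma adjusted p = 0.723). Mitochondrial Sod2 differed by −0.025 and catalase, Cat, by 0.14.

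Gpx1, Gpx3, Gpx4 and Txnrd1 depend on selenium, so other selenoproteins and the genes that build selenocysteine were read beside them. Of 29 measured 20 were below 0, with a median of −0.061, and 0 passed. Sephs2, which makes the selenium donor for selenocysteine, had 7.54, 7.59 and 7.71 in castrated samples, against 7.82, 7.92 and 7.98 in sham samples. All castrated samples lay below all sham samples for Sephs2 (difference −0.29, standard error 0.10, limma adjusted p = 0.668). Msrb1, a selenium-dependent methionine sulfoxide reductase, differed by −0.26. The plasma selenium carrier Selenop and the muscle selenoprotein Selenow differed by −0.035 and 0.14.

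Beside Hmox1, 10 of 14 measured genes of haem and iron handling were below 0, with a median of −0.086, and 0 passed. Slc40a1, the iron exporter ferroportin, had 7.86, 8.13 and 8.04 in castrated samples, against 8.25, 8.51 and 8.46 in sham samples, and the groups were apart (difference −0.40, standard error 0.12, limma adjusted p = 0.607). Ncoa4, the receptor that delivers ferritin for degradation, differed by 0.19. Among 12 measured sources of oxidants 5 were below 0, with a median of 0.034, and 0 passed. Maob, the mitochondrial monoamine oxidase B, which releases hydrogen peroxide, had 8.29, 8.25 and 8.27 in castrated samples, against 8.01, 8.02 and 7.95 in sham samples, with the groups apart (difference 0.28, limma adjusted p = 0.658). Ncf1, a subunit of the phagocyte oxidase, differed by −0.30.

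**Figure D4:**
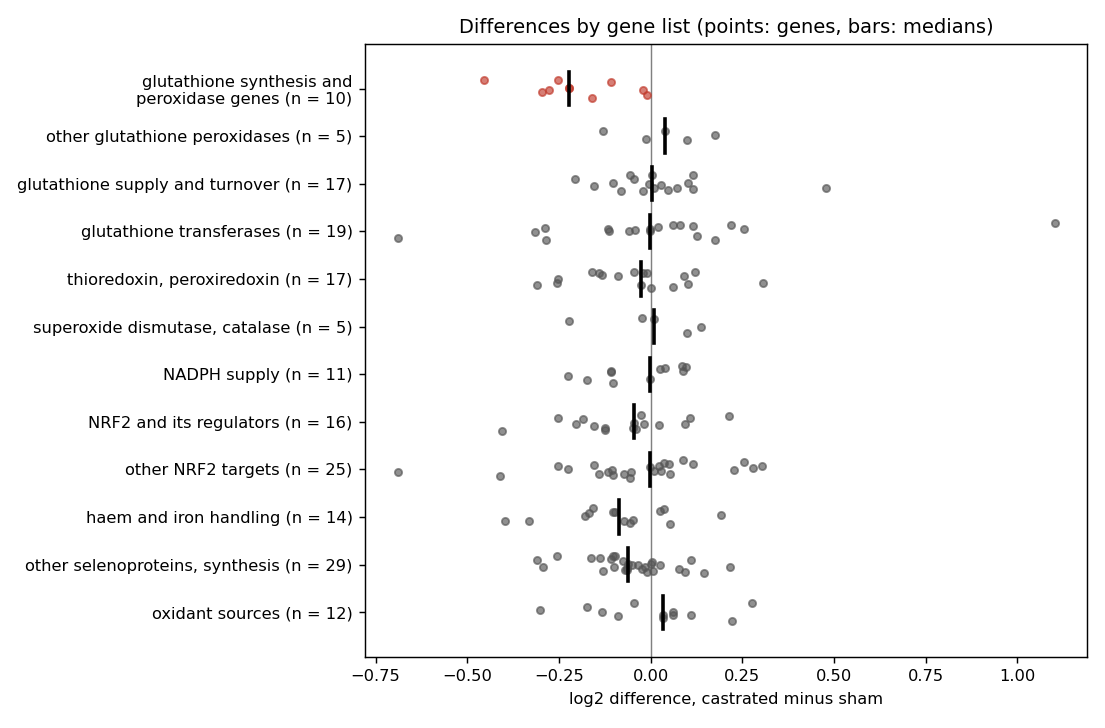
Log2 difference, castrated minus sham (x axis), of every measured gene in the 10-gene group (red) and in 11 lists of related genes (grey), with black bars for medians. The 10 genes have a median of −0.22 and lie wholly below 0, while the medians of the related lists run from −0.086 to 0.040.

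Across the series, 3 of 22180 genes passed the threshold, 1 higher and 2 lower, and none belongs to these lists. Arrays correlated over genes at 0.9904 to 0.9924 within a group and 0.9895 to 0.9916 between groups. All 14 skeletal muscle markers were measured. Acta1, skeletal alpha-actin, lay between 13.52 and 13.64 on all arrays, against a highest deposited value of 13.91. Of the 14, 8 had a difference below 0, with a median of −0.022, and 0 passed the threshold. In 3 of them, Myh1, Tnni2 and Mb, all castrated samples lay below all sham samples, as did 7.02% of all genes. Mb, myoglobin, had the lowest difference of the 14, −0.25. Each of the 10 genes lay above the array median on all 6 arrays. Red cells are rich in Gpx1, but only 2 of 9 red cell markers had a probe set of their own, so their share could not be followed here.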

How the data were processed

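The authors deposited 1 normalized log2 value for each probe set and array. Total RNA was taken from some 25 mg of muscle, and 300 ng was labelled for Affymetrix whole-transcript arrays, per the labels' protocols. The submitters' processing notes name the software Partek. How background was corrected and arrays were normalized is not given in the sources used here. Precision is limited by the number of arrays.

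Of 41345 probe sets, 23521 carry 1 gene symbol, 1814 several and 16010 none. Symbols were updated through Entrez identifiers (GRCm38.p6 gene table, 23328 matched), and the probe set with the highest mean represented each gene, giving 22180 genes with no filter. Castrated was compared with sham by limma 3.58.1 in R 4.3.3 (lmFit, eBayes, no covariate), with p-values adjusted by Benjamini-Hochberg across the 22180 genes and called under 0.05. Groups come from the sample titles. No batch is named in the labels. Nothing in the labels states that samples came from separate cages or cohorts, so p-values reflect only how these samples vary, which may be technical. The procedure was tested on simulated data.

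The 10 genes and the lists were chosen with earlier results of these data known. The text names the 10 genes, the 2 genes with the smallest p in each related list, a set of pathway genes fixed by name, and the 3 genes most like Gclm. The fixed set included Prdx1 and G6pdx, which share their probe sets with other symbols and are not analysed here. Myh7, Tpm3, Adipoq, Cd163, Acta1, Myh1, Tnni2, Mb and the neutrophil markers are cell type markers named beside a result. Chac2 is named beside its relative Chac1. Lists were described by counts and medians, without a set test. Same-numbered samples of the groups deviated together only weakly (correlations 0.0759, 0.0325 and 0.0473), below the minimum of 0.1 set for pairing. Alternatives were other normalizations, filters on dim genes, other probe set rules, the replicate block, other variance priors, other thresholds, array weights and the removal of each sample in turn. Figures were drawn with matplotlib 3.10.9.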

Additional observations from a re-analysis of the deposited data

How the results depend on the processing

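None of the 10 genes passed the threshold under any of 17 alternative settings. Thresholds of 0.1 and 0.01 could add none, because the smallest limma adjusted p of the 10 was 0.668 in the main fit. Over the alternative settings their smallest adjusted p was 0.336, for Gclm when only the brighter genes, from the 50th percentile up, were tested. Filters, probe set rules, the replicate block and variance priors cannot move these differences, only their p. Of the 100 differences recomputed under the other 10 settings 8 were above 0, and all belonged to Gss or Nqo1. After quantile normalization these were 0.0032 for Gss and 0.023 for Nqo1, and after cyclic loess normalization 0.0033 and 0.021. Of the 10 genes, 3 had an unadjusted p under 0.05 in the main fit, but 1 after either of these normalizations. That count was 0 without variance moderation, 4 with the 50th percentile filter or the replicate block, and 5 with a trended robust variance prior. With a sample left out Gss ran from −0.096 to 0.062 and Nqo1 from −0.076 to 0.077. The median of the 10 genes had its extremes when castrated sample 1 (−0.17) or castrated sample 3 (−0.25) was left out. Genes past the threshold over the whole table numbered 3, but 9 and 16 with filters at the 25th and 50th percentile. They numbered 10 with a trended robust variance prior and 0 without variance moderation, where 1412 had an unadjusted p under 0.05. With the filters 16635 and 11090 genes were tested, with the variance prior refitted. The unadjusted limma p of Gclm went from 0.019 to 0.012 and 0.0092 with them. The cause of these changes in number was not tested. With the replicate block 2 genes passed and the adjusted p of Gclm was 0.559. Every sample correlated best with its own number, but all these correlations were below the minimum of 0.1 set for pairing. They are also tied to each other, because deviations from a group mean sum to 0. No pairing was read from them, and the design names none. Slc7a11 and Gpx5 lie far below the array medians, and whether they were above background was not tested.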
